A study of Mus musculus with 120 samples.

Results

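The kinase Hunk (hormonally up-regulated Neu-associated kinase) was induced for 39 hours in mouse embryonic stem (mES) cell clones, and the transcriptome was read on 6 Affymetrix Mouse430_2 arrays, which are all the arrays titled Hunk ES clone among the 120 arrays of the series. The induced arrays came from 3 clones grown without tetracycline (Tc) for 39 hours, and the uninduced arrays came from the same 3 clones kept in Tc, so that each clone is its own reference. All clones derive from EB3, a male mES line with a Tet-off locus, and each carries the Hunk coding sequence with 3xFLAG at its C terminus, transcribed from the ROSA26 locus once Tc is withdrawn. Induced and uninduced cells were both kept in medium with leukemia inhibitory factor (LIF), and the Hunk clones had been grown in more puromycin than most other clones of the series to reduce the spread between replicates. Withdrawal of Tc is part of every induction here, so the effect of the transgene and that of Tc withdrawal cannot be told apart within the Hunk clones. The 18 other transgenes profiled on the same array type went through the same withdrawal, but not all for the same time. Among them, Ripk4 and Sim2 were also induced for 39 hours, Aire and Pdxk for longer, and all the rest for a shorter time.

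Hunk is a serine/threonine kinase of the SNF1/AMPK-related family. It was found in the mouse mammary gland, where it is regulated during pregnancy, and it is best known for its part in mammary tumours driven by ErbB2 (Neu). Kinases of this family, such as AMPK and the salt-inducible kinases, link nutrient and energy supply to metabolism and growth, and Hunk itself has been linked to Akt signalling, cofilin, protein phosphatase 2A and autophagy. In mES cells held in LIF, a network around Pou5f1, Nanog and Sox2 maintains pluripotency, while Nodal and its secreted inhibitors Lefty1 and Lefty2 form a feedback pair.

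The transgene was amplified with the 2 primers below, shown because they define what was overexpressed. The lower case bases are the added cloning ends (AscI in the forward and PacI in the reverse primer), and the capitals are the 21 bases that match Hunk.
Hunk-fw: ggcgcgccATGCCGGCAGCGGCGGGGGAC
Hunk-rev: ttaattaaACACTGGCCCTTGACACCGTC
The forward primer begins at the start codon, and the reverse primer, read on the coding strand, ends in frame without a stop codon. The cassette therefore holds the coding sequence and no untranslated region of Hunk, which lies on chromosome 16.

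The array carries 1 probeset for Hunk (1418260_at). Its log2 intensity, the deposited unit, was 8.53, 8.50 and 8.57 in the induced clones 1, 2 and 3, against 8.41, 8.71 and 8.54 in the same clones uninduced. The values of the 2 states overlapped. The mean difference, induced minus uninduced, was −0.02 log2 with a 95% interval of −0.23 to 0.19 (limma with the clone as a block, adjusted p = 0.974). Without clone 2 it was 0.08, so its sign depended on that clone. Over the 18 other experiments the same probeset differed by −0.30 in Sim2 clones at the lowest and by 0.38 in Nrip1 clones at the highest. Which part of the transcript the probes of this probeset read was not tested here, and a probeset outside the coding sequence cannot report the transgene. These arrays therefore give no check of their own that Hunk was overexpressed, and the state of each array rests on its label. The study also followed transgene induction by q-PCR, which is not analysed here.

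The array medians were between 5.33 and 5.40 log2. The cells matched the label of mES cells: all 10 ES cell markers (Pou5f1, Nanog, Sox2, Klf4, Esrrb, Zfp42, Dppa5a, Tdgf1, Utf1 and Sall4) lay between 10.6 and 14.03 log2, at or above the 94.8th percentile of all probesets in every array, and 0 of them passed the test or an unadjusted p under 0.05. Their summed level was 15.84 to 15.85 log2 in induced and 15.80 to 15.81 log2 in uninduced clones. Of the 18 markers of endoderm, trophectoderm, neural cells and fibroblasts, the neuronal tubulin gene Tubb3 was highest (8.10 to 8.41 log2, up to the 82nd percentile), and the others reached the 68.7th at most. The summed level of the 6 fibroblast markers was 7.63 to 7.76 log2 in induced and 7.63 to 7.66 log2 in uninduced clones, and the 4 neural markers summed to 8.69 to 8.70 and 8.82 to 8.97 log2.

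The 3 clones were not alike. A test for differences between the clones, with both states of a clone together, called 89 of 45101 probesets (0.197%, adjusted p under 0.05), and the 3 genes with the widest range are Y-linked. Eif2s3y, a translation initiation factor subunit (1417210_at), was at 2.59 log2 induced and 3.08 uninduced in clone 1, at 8.54 and 8.94 in clone 2, and at 8.84 and 8.85 in clone 3. Uty, a histone demethylase family member (1426598_at), was at 2.26 and 2.17 log2 in clone 1 and between 7.59 and 7.62 in both states of the others, and Uba1y (1450285_at) was at 3.25 and 3.47 log2 in clone 1 and at 6.82 to 7.28 elsewhere. Clone 1 thus had low values of these Y-linked genes in both states. Among the 57 clones on this array type, 9 clones from 8 experiments were under 5.5 log2 for Eif2s3y in both states, although the arrays of each experiment were normalized apart. The next genes by range were autosomal: the lysine-degrading enzyme gene Aass (8.22 and 8.20 log2 in clone 2, 6.33 to 6.98 elsewhere), Calml4 (10.37 and 10.43 log2 in clone 3, 8.74 to 8.93 elsewhere) and 2610528J11Rik (7.04 and 6.96 log2 in clone 3, 5.34 to 5.69 elsewhere). Clone 3 also stood apart in control probesets of the array, which read bacterial and mouse transcripts and of which 5 of 64 passed the same test (7.81%). The bacterial control AFFX-ThrX-3_at was at 7.56 and 7.74 log2 in clone 3 and at 6.38 to 6.88 log2 in clones 1 and 2. The cells do not make this transcript. Why its level differed between the clones was not tested, nor how far this enters the other differences between clones.

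The induction difference was also uneven between clones. Across all probesets, which share arrays and are not independent, the differences of clones 1 and 2 correlated with r = 0.353, those of clones 1 and 3 with r = 0.179 and those of clones 2 and 3 with r = −0.051. Of 45101 probesets, 13924 (30.9%) moved the same way in all 3 clones, and the induced and uninduced values did not overlap in 4993 (11.1%).

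After 39 hours 3 of 45101 probesets passed an adjusted p of 0.05 (0.00665%), 1 of them higher (0.00222%) and 2 lower (0.00443%) in induced clones, and 4257 (9.44%) had an unadjusted p under 0.05, 4.9% higher and 4.54% lower. Lefty1, which encodes a secreted inhibitor of Nodal and lies on chromosome 1, rose, while Skor1, which encodes a corepressor of the SKI family and lies on chromosome 9, and the uncharacterised gene 9330159F19Rik on chromosome 10 fell. The fit without the clone as a block called 0 probesets (2633 at an unadjusted p under 0.05). With the block, leaving out clone 1, 2 or 3 gave 1, 5 or 268 calls. The number of calls therefore turned on which clones entered.

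Skor1 (1437880_at) was at 4.83, 4.49 and 5.32 log2 in induced clones 1 to 3, against 6.08, 6.08 and 6.61 log2 in uninduced clones. Every induced array lay below every uninduced one and below its own array median. Skor1 fell by 1.37 log2 (SE 0.09, adjusted p = 0.0151 in limma), and it passed the threshold whichever clone was left out, with an adjusted p of 0.0333, 0.0102 and 0.00592 without clones 1, 2 and 3. Without the clone as a block its adjusted p was 0.251. A second Skor1 probeset (1460100_at), with a mean of 3.91 log2 in induced clones, differed by −0.06.

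9330159F19Rik (1458379_at) was at 4.10, 4.36 and 4.10 log2 in the induced clones and at 5.28, 5.38 and 5.23 log2 in the uninduced ones. The groups did not overlap, and the induced values lay under the array medians. It fell by 1.11 log2 (SE 0.08, adjusted p = 0.0151 in limma), with an adjusted p of 0.145 without clone 1 and 0.0678 without the block. Its second probeset (1438720_at) differed by −0.39.

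Lefty1 (1417638_at) was at 11.30, 11.11 and 11.39 log2 in the induced clones, against 10.01, 10.06 and 10.48 log2 in the uninduced ones. All induced values were above all uninduced values, and clone 1 differed most. Lefty1 rose by 1.09 log2 (SE 0.09, adjusted p = 0.0432 in limma). This call was lost without clone 1 (adjusted p = 0.230), without the block (0.186), with a second quantile normalization (0.0616), with dim probesets left out (0.0852), with a variance shared over all experiments (0.161) and with the methods' t-test (0.748). Lefty2, the neighbouring paralog with the same role, was at 7.88, 7.64 and 8.26 log2 induced and at 6.51, 6.81 and 7.81 log2 uninduced. Each clone was higher when induced, but the states overlapped, since uninduced clone 3 lay above induced clone 2, and the mean difference of 0.88 log2 did not pass (adjusted p = 0.180, 0.0158 without clone 3). Nodal itself, the ligand that both inhibit, differed by 0.15 and 0.21 log2 in its 2 probesets.

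**Figure D1:**
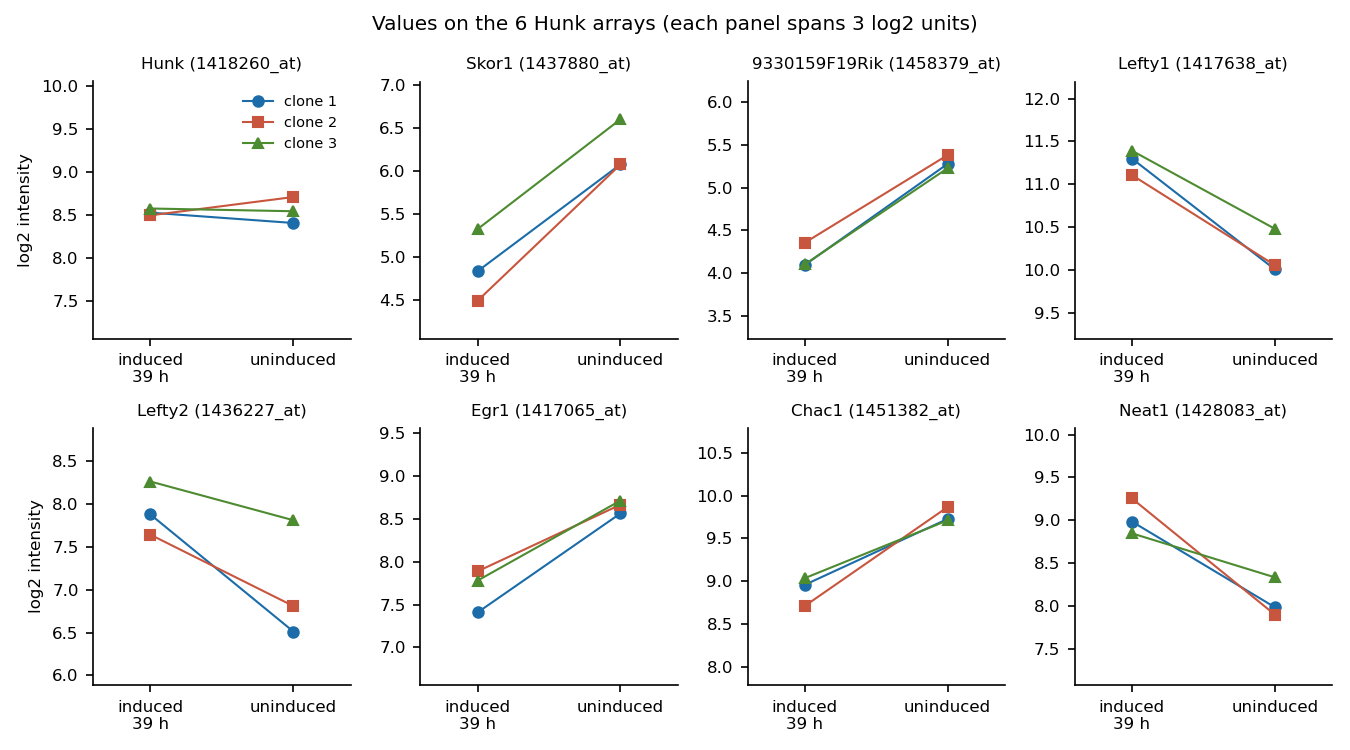
Log2 intensity (vertical axis) of 8 genes on the 6 Hunk arrays, induced at 39 hours on the left and uninduced on the right of each panel, with a line for each of the 3 clones and 3 log2 units in every panel. Skor1 and 9330159F19Rik were lower and Lefty1 higher in the induced array of every clone, while the 3 lines of Hunk stayed between 8.41 and 8.71 log2.

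Beyond these 3, the 12 genes with the largest differences in each direction were taken among those that moved the same way in all clones, had an unadjusted p under 0.01 and lay above the array median in their higher state. They include Lefty1 and Skor1, and the other 22 did not pass the adjusted threshold. Among those higher in induced clones, the extracellular matrix gene Frem2 (1457038_at) was at 6.13, 5.83 and 5.91 log2 induced and at 5.24, 4.68 and 5.26 log2 uninduced, a difference of 0.90 log2 (adjusted p = 0.0924). The lysophosphatidic acid receptor gene Lpar4 differed by 0.78 log2, the surface antigen gene Cd109 by 0.74 log2 and the fibronectin gene Fn1 by 0.72 log2 (adjusted p = 0.0924, 0.137 and 0.139). The other Fn1 probeset (1426642_at) gave 0.22 log2. Mgst1, a membrane-bound glutathione transferase gene, was at 6.34, 6.05 and 6.51 log2 induced, against 5.34, 5.42 and 5.60 log2 uninduced, and differed by 0.84 log2 (adjusted p = 0.0924), while its second probeset (1415898_at) gave −0.02 log2.

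Of the others on the higher side, Neat1, the long noncoding RNA of paraspeckles (1428083_at), was at 8.98, 9.25 and 8.85 log2 in induced clones and at 7.98, 7.90 and 8.33 log2 in uninduced clones, a difference of 0.96 log2 (adjusted p = 0.140). Hypk, which encodes a partner of the N-terminal acetyltransferase NatA, was at 5.36, 5.69 and 5.39 log2 against 4.64, 4.52 and 4.95 log2, a difference of 0.78 log2 (adjusted p = 0.174). The splicing factor gene Tra2a differed by 0.70 log2 with overlapping states (adjusted p = 0.191), and Meg3, an imprinted noncoding RNA, by 0.68 log2 (1436713_s_at, adjusted p = 0.139). Rps24, a ribosomal protein gene, was at 9.04, 9.08 and 9.04 log2 in 1455195_at, against 8.25, 8.21 and 8.52 log2, a difference of 0.73 log2 (adjusted p = 0.101). Its 5 other probesets differed by only 0.00 to 0.05 log2.

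Among those lower in induced clones, Egr1, an immediate early transcription factor gene (1417065_at), was at 7.41, 7.89 and 7.78 log2 induced and at 8.57, 8.67 and 8.72 log2 uninduced. The states did not overlap, and the difference of −0.96 log2 had an adjusted p of 0.0816, and of 0.0309 and 0.0158 without clones 2 and 3. Chac1, a glutathione-degrading enzyme gene induced by ATF4 (1451382_at), was at 8.96, 8.71 and 9.04 log2 induced, against 9.73, 9.87 and 9.71 log2 uninduced, a difference of −0.87 log2 (adjusted p = 0.0924). Myl9, a regulatory myosin light chain gene, was at 6.39, 6.76 and 6.83 log2 against 7.51, 7.70 and 7.43 log2, a difference of −0.88 log2 (adjusted p = 0.0924). Pax6, a transcription factor gene of the neural and eye lineages, was at 5.73, 5.73 and 5.65 log2 in 1419271_at, against 6.33, 6.37 and 6.44 log2, a difference of −0.68 log2 (adjusted p = 0.0924), while its 4 other probesets lay between −0.47 and −0.01 log2.

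The remaining genes lower in induced clones were Pla2g7 (−0.80 log2), which encodes the acetylhydrolase of platelet-activating factor, Soga3 (−0.78 log2), 4930444M15Rik (−0.70 log2), Rprd2 (−0.69 log2), which encodes a binder of the RNA polymerase II tail, Tmcc3 (−0.64 log2), Gtf3c6 (−0.64 log2), which encodes a TFIIIC subunit, and Atl3 (−0.62 log2), which encodes a membrane-fusing GTPase of the endoplasmic reticulum. Their adjusted p in limma lay between 0.0924 and 0.185. In Soga3 clone 3 differed least, by −0.31 log2, against −0.99 and −1.03 log2 in clones 1 and 2.

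**Figure D2:**
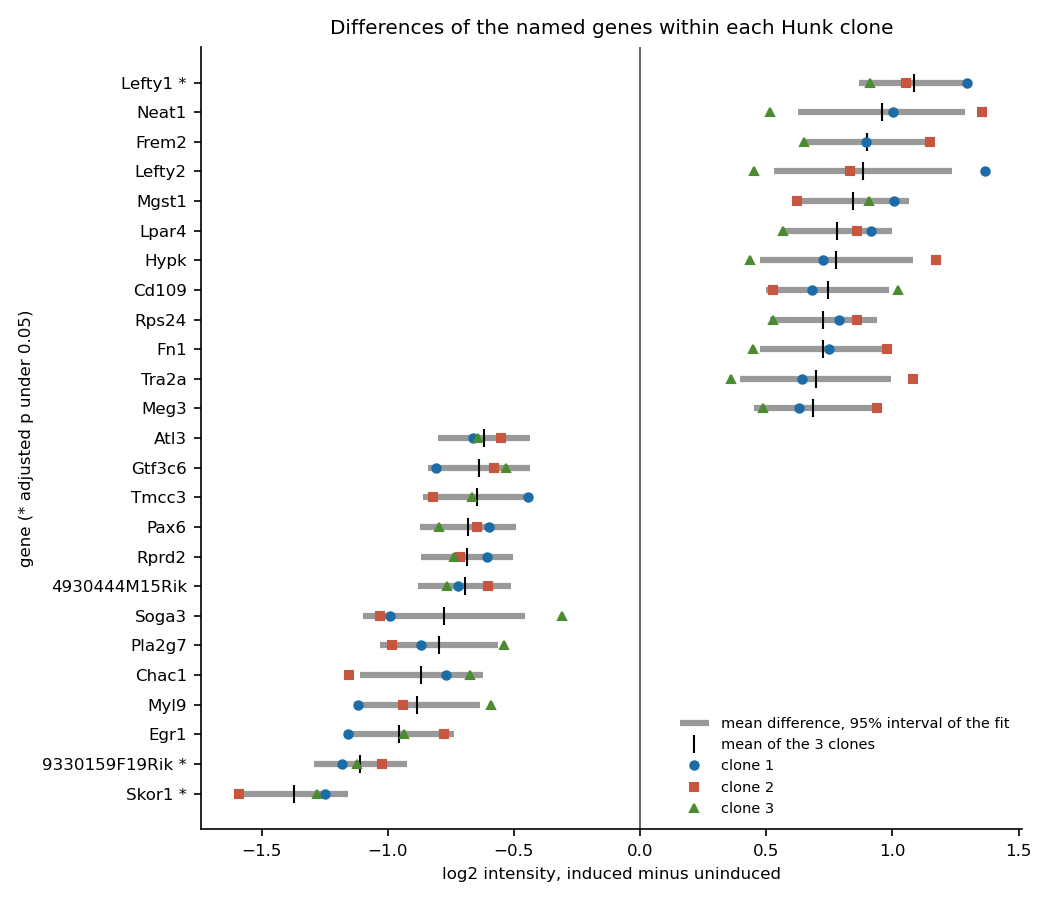
Induced minus uninduced log2 intensity (horizontal axis) of 25 genes, with a symbol for each of the 3 clones, a tick for their mean and a bar for its 95% interval. The means run from 1.09 log2 for Lefty1 to −1.37 log2 for Skor1.

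The difference of the Hunk experiment was tested against the mean difference of the 18 other experiments, each with its own clones and uninduced arrays. Most of the 18 were induced for less than 39 hours, so this contrast does not separate the transgene from the length of induction. In it, 3 of 45100 probesets passed (0.00665%, with 2351 or 5.21% at an unadjusted p under 0.05). One was 9330159F19Rik, at −1.11 log2 in Hunk clones against a mean of −0.14 log2 elsewhere, where the lowest value was −0.96 log2 in Aire clones (difference −0.97 log2, SE 0.18, adjusted p = 0.0285 in limma). This gene was also at −0.65 log2 in Pdxk, −0.47 log2 in Ripk4 and −0.30 log2 in Sim2 clones. Of the 18 experiments, 9 were below 0 for it. Hypk was at 0.78 log2 in Hunk clones against −0.05 log2 elsewhere and 0.48 log2 at the highest, in Gabpa clones (difference 0.83 log2, SE 0.15, adjusted p = 0.0243). The last, 1444292_at, is annotated to several genes and is not named (difference 0.95 log2, SE 0.16, adjusted p = 0.0179). It was at 9.32, 9.45 and 9.04 log2 induced, against 8.26, 8.15 and 8.46 log2 uninduced. Its difference was 0.73 log2 in Sim2 and 0.09 log2 in Ripk4 clones, and 7 of the 18 were above 0. Hunk and Sim2 clones differed in it by 0.25 log2 (unadjusted p = 0.310 in limma). Without Hunk clone 1, and without Hunk clone 2, 0 probesets passed this contrast. Without clone 3 the call of 9330159F19Rik was also lost (adjusted p = 0.231), so it held in this contrast only with all 3 clones.

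The other 2 called genes did not pass it. Skor1 differed by −1.38 log2 from the mean of the other 18 (adjusted p = 0.122). It was at −2.13 log2 in Aire, −1.35 log2 in Pdxk, −0.96 log2 in Sim2 and −0.93 log2 in Ripk4 clones, all induced for 39 hours or longer. Among the experiments with a shorter induction it ran from −0.44 log2 in Pfkl to 2.57 log2 in Nrip1 clones. In all, 8 of the 18 were below 0. Whether Skor1 followed the length of induction was not tested. Lefty1 differed by 0.81 log2 (adjusted p = 0.743), and it was at 1.81 log2 in Aire, 1.78 log2 in Nrip1, 1.01 log2 in Pdxk and 0.85 log2 in Ripk4 clones, against −1.19 log2 in Gabpa clones. Egr1 and Chac1 were below 0 in 15 of the 18 other experiments each, with 3 and 4 of these lower than in Hunk clones. Hypk, 9330159F19Rik, Rps24, Tra2a and Gtf3c6 were the 5 of the 25 named genes for which 0 of the 18 others had a larger difference in the same direction.

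Against single experiments at the same 39 hours, 0 of 45100 probesets passed for Hunk minus Ripk4 (0%, 2667 or 5.91% at an unadjusted p under 0.05), and 5 passed for Hunk minus Sim2 (0.0111%, 4074 or 9.03% at an unadjusted p under 0.05). Skor1 was at −0.93 log2 in Ripk4 and −0.96 log2 in Sim2 clones, and the differences of −0.45 and −0.42 log2 from Hunk clones did not pass (unadjusted p = 0.432 and 0.0333, adjusted p = 0.942 and 0.498 in limma). For Ripk4, the transferrin receptor gene Tfrc and the hypoxia-inducible Ndrg1 had the smallest p: Ndrg1 (1456174_x_at) was at 0.13 log2 in Hunk and at 1.20 log2 in Ripk4 clones. For Sim2, the calls were Ddit3, the gene of the stress transcription factor CHOP, at −0.59 log2 in Hunk and 1.30 log2 in Sim2 clones, A630072M18Rik at −0.10 and −1.26 log2, and 3 probesets of the Rab guanine nucleotide exchange gene Rab3il1 at 0.09 to 0.34 log2 in Hunk and 1.25 to 2.07 log2 in Sim2 clones. Of these, Ddit3 had opposite signs in the 2 experiments. Leaving out any Hunk clone ended all 5 calls.

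**Figure D3:**
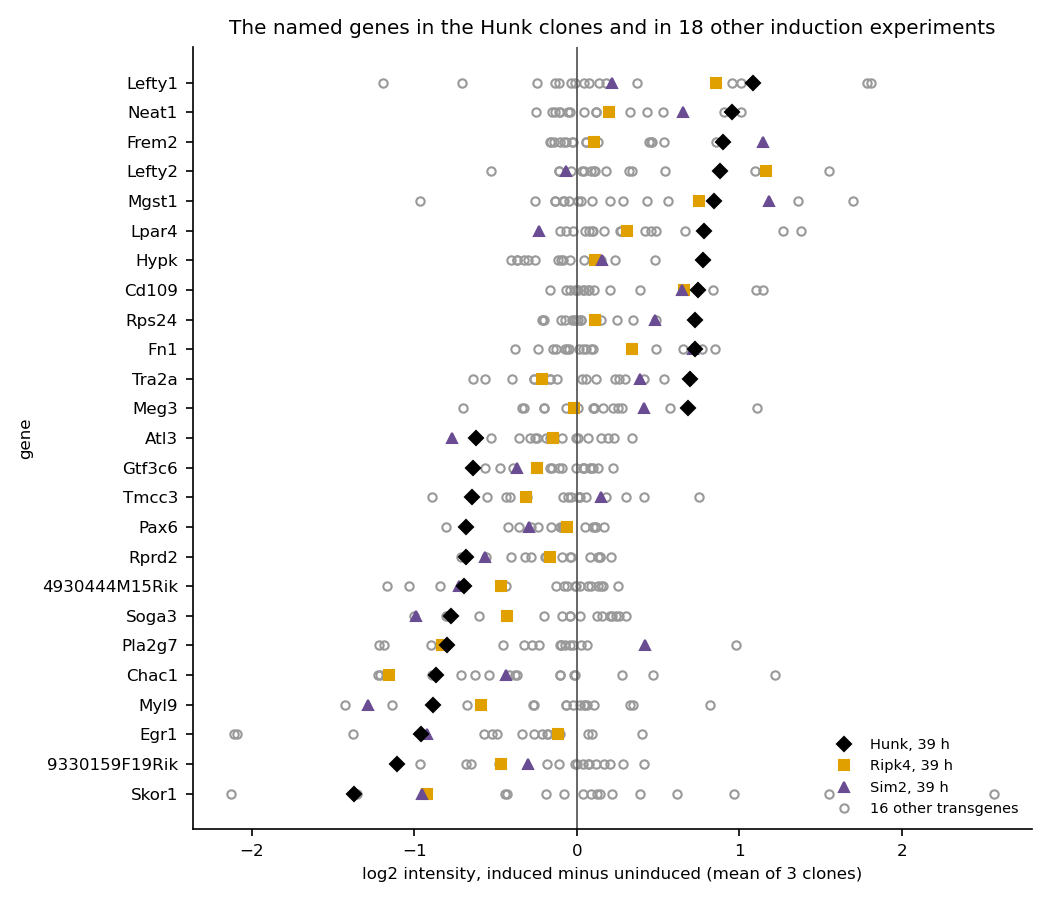
Mean induced minus uninduced log2 intensity over 3 clones (horizontal axis) of the 25 named genes in Hunk, Ripk4 and Sim2 clones at 39 hours and in 16 other transgene experiments. The Hunk value of 9330159F19Rik (−1.11 log2) and of Hypk (0.78 log2) lies outside the others, while that of Skor1 lies between −2.13 and 2.57 log2.

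Gene lists were then read through 1 probeset per gene. Over all 18195 genes the median difference was −0.01 log2, and 1755 genes (9.65%) had an unadjusted p under 0.05, with 4.85% higher and 4.8% lower. In none of the 25 lists did a member pass the adjusted threshold, so the counts that follow are of unadjusted p under 0.05 and describe the lists without a test of them.

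Lists from the network in which Hunk is placed had medians between −0.05 and 0.08 log2. Of 24 AMPK-related kinases and LKB1 partners, 2 were higher and 2 lower, with a median of −0.01 log2. The AMPK subunit gene Prkag2 was at 7.19, 7.15 and 7.32 log2 induced and at 6.48, 6.93 and 6.94 log2 uninduced, a difference of 0.44 log2 (unadjusted p = 0.00317, adjusted 0.274), and Strada, which encodes an activator of LKB1, differed by −0.27 log2. Of 26 genes of ErbB receptors, ligands and Akt signalling, 1 was higher and 2 lower (median −0.05 log2, with all 18 other experiments between −0.03 and 0.06 log2), with the ErbB ligand gene Hbegf at −0.37 log2 and the lipid kinase subunit gene Pik3ca at 0.26 log2. Of 24 genes around cofilin and protein phosphatase 2A, 0 were higher and 2 lower (median −0.05 log2), among them the actin-disassembly cofactor gene Wdr1 (−0.30 log2). Of 29 autophagy genes, 4 were higher and 0 lower (median 0.08 log2), led by the lysosomal membrane protein gene Lamp2 (0.28 log2). The 3 clone medians of the autophagy list were 0.05, −0.07 and 0.19 log2, so they did not share a sign.

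Translation genes stayed close to 0. Of 38 cytosolic ribosomal protein genes 1 was higher and 0 lower (median −0.01 log2), and the 1 was Rpl12 at 0.35 log2. Of 39 translation factor genes 0 were higher and 0 lower (median −0.00 log2). Of 58 mitochondrial translation genes 0 were higher and 4 lower (median −0.04 log2), the largest being Mtif3, a mitochondrial initiation factor gene, at −0.20 log2.

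Negative regulators of the cell cycle showed the widest shift among the lists. Of 19 measured, 10 were higher and 3 lower in induced clones, with a median of 0.29 log2 against −0.01 log2 over all genes, and 17 of the 18 other experiments had a lower median for this list, with Ripk4 at 0.12 log2 and Sim2 at 0.22 log2. Rb1, the retinoblastoma gene (1417850_at), was at 9.38, 9.31 and 9.03 log2 induced and at 8.64, 8.74 and 8.77 log2 uninduced, a difference of 0.53 log2 (adjusted p = 0.198). Its relatives Rbl1 and Rbl2 both differed by 0.29 log2. The antiproliferative gene Btg1 differed by 0.48 log2, the stress-induced Gadd45g by 0.48 log2, Ccng2 by 0.43 log2 and the Cdk inhibitor gene Cdkn1a by 0.32 log2. In the other direction, Cdkn2a, the Ink4a/Arf gene, was at 4.15, 4.41 and 4.07 log2 induced and at 4.48, 4.69 and 4.98 log2 uninduced (−0.50 log2), Gadd45b differed by −0.38 log2 and Gadd45a by −0.22 log2. The clone medians were 0.27, 0.28 and 0.06 log2. Genes of DNA replication (0 higher and 1 lower of 31, median −0.01 log2) and of mitosis (1 higher and 0 lower of 23, median 0.05 log2) had medians close to that of all genes.

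Genes of sugar and lipid supply leaned higher, which in part followed clone 1. Of 18 glycolysis genes 8 were higher and 0 lower (median 0.19 log2), and all 3 clone medians were above 0 (0.30, 0.13 and 0.17 log2). The aldolase gene Aldoc (1451461_a_at) was at 8.19, 7.68 and 8.32 log2 induced and at 7.38, 7.47 and 7.88 log2 uninduced, a difference of 0.49 log2, and the 3 phosphofructokinase genes Pfkl, Pfkp and Pfkm differed by 0.33, 0.33 and 0.31 log2. Of 22 hypoxia targets 6 were higher and 0 lower (median 0.14 log2), led by the mitophagy receptor gene Bnip3 at 0.62 log2, which was at 11.09, 10.67 and 10.93 log2 against 10.17, 10.02 and 10.64 log2. Of 22 genes of cholesterol and fatty acid synthesis 5 were higher and 0 lower (median 0.08 log2), among them the sterol enzyme genes Msmo1 (0.36 log2) and Sqle (0.29 log2). The list medians of clone 1 were 0.27 log2 for hypoxia and 0.24 log2 for cholesterol, against 0.03 and 0.03 log2 for hypoxia and 0.01 and 0.04 log2 for cholesterol in clones 2 and 3. Without clone 1 the counts higher were 1 of 18 for glycolysis, 2 of 22 for hypoxia and 0 of 22 for cholesterol. In that fit 366 of all 18195 genes were higher and 337 lower (3.86% in both directions together). In Ripk4 and Sim2 clones these lists had larger medians, at 0.28 and 0.34 log2 for glycolysis, 0.59 and 0.52 log2 for hypoxia, and 0.34 and 0.36 log2 for cholesterol, though these differences between experiments were not tested.

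Members of the stress and signal response lists that had an unadjusted p under 0.05 were nearly all lower. Of 34 genes of the amino acid response, which the transcription factor ATF4 drives when amino acids run short, 1 was higher and 8 lower (median −0.08 log2). After Chac1, Ddit3 was at 7.58, 7.57 and 7.90 log2 in induced clones and at 8.07, 8.33 and 8.41 log2 in uninduced clones (−0.59 log2, adjusted p = 0.139), and the pseudokinase gene Trib3 was at 8.86, 8.70 and 9.07 log2 against 9.26, 9.24 and 9.45 log2 (−0.44 log2, adjusted p = 0.185). Neither pair of states overlapped. Atf3, Nupr1 and Atf4 itself differed by −0.38, −0.34 and −0.32 log2. The second Ddit3 probeset (1443897_at) gave 0.05 log2. The 1 gene that was higher was the amino acid transporter gene Slc38a2 (0.22 log2). The medians of this list in the 18 other experiments had a median of −0.11 log2, 10 of them were below that of Hunk clones, and Ripk4 clones were at −0.25 log2. Without clone 1, 2 or 3 the count lower was 7, 7 or 8, where 337, 632 or 1421 of all 18195 genes were lower.

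The promoters of Chac1, Trib3 and Ddit3 are shown because these 3 had the largest differences of the list. Each is 300 bases from the RefSeq table for GRCm38.p6 (250 before and 50 after the transcription start, as tabulated), and capitals mark TGATGNAA, a letter pattern of composite C/EBP-ATF sites, on either strand.
Chac1, chr2:119350992-119351291, plus strand: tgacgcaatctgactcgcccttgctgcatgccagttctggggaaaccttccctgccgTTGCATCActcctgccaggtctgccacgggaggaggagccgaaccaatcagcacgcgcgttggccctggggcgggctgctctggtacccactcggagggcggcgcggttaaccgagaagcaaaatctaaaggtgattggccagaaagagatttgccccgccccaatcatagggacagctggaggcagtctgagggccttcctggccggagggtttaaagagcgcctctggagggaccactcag
Trib3, chr2:152344011-152344310, minus strand: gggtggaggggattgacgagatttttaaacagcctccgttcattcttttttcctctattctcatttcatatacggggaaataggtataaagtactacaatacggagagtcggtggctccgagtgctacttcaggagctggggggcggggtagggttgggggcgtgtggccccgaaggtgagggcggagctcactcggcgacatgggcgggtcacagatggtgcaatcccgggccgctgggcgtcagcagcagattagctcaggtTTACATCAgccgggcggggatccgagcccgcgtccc
Ddit3, chr10:127290543-127290842, plus strand: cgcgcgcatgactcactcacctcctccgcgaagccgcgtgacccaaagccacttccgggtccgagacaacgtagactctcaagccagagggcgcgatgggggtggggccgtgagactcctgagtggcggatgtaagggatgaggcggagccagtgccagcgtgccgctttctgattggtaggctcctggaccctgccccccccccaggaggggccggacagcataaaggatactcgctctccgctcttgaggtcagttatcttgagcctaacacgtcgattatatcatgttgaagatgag
The pattern occurs once each in the Chac1 and Trib3 windows, in both on the opposite strand, and its letters are not in the Ddit3 window. It was in 7 of the 26 list members matched to the promoter table, in 4 of the 8 that were lower (Chac1, Trib3, Atf3 and Nupr1), and in 3.97% of the 32851 promoters of the table. A match is a description of these letters and was not tested as a binding site.

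Of 23 immediate early genes 0 were higher and 6 lower (median −0.09 log2, clone medians −0.10, −0.14 and −0.15 log2). Fos, which encodes an AP-1 subunit, was at 5.94, 6.20 and 6.10 log2 induced and at 6.45, 6.67 and 6.90 log2 uninduced (−0.59 log2, adjusted p = 0.150). The phosphatase gene Dusp4, a feedback target of ERK signalling, differed by −0.35 log2. Fos was at 0.26 log2 in Ripk4 and 0.43 log2 in Sim2 clones, and its difference from the mean of the 18 other experiments (−0.59 log2) did not pass (adjusted p = 0.0546). Of 25 heat shock and chaperone genes 0 were higher and 5 lower (median −0.02 log2), with the ER stress gene Herpud1 at −0.59 log2 and the Hsp70 genes Hspa1b and Hspa1a at −0.51 and −0.37 log2. Hspa1a and Hspa1b are near-identical copies, so their probesets may not tell them apart.

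**Figure D4:**
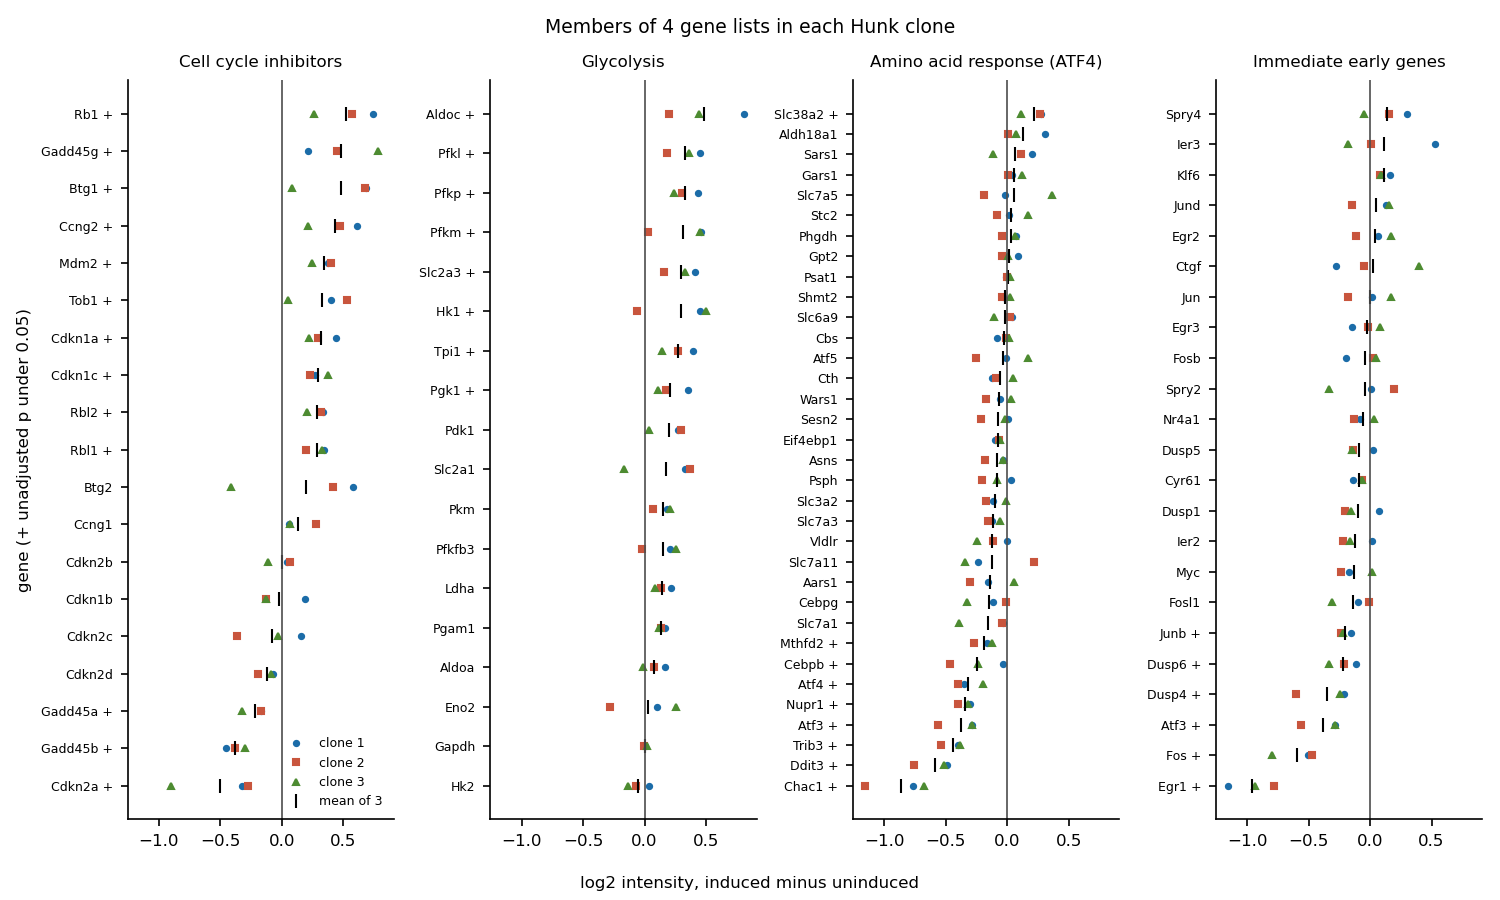
Induced minus uninduced log2 intensity (horizontal axis) of each measured member of 4 gene lists, with a symbol for each clone and a tick for the mean, and a plus sign after genes with an unadjusted p under 0.05. Of 19 cell cycle inhibitors 10 were marked and higher, and of 34 amino acid response genes 8 were marked and lower.

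Genes of cell identity were read next. Of 26 pluripotency genes 2 were higher and 4 lower (median 0.02 log2). The translational repressor gene Lin28a differed by −0.34 log2, the TGF-beta family ligand gene Gdf3 by −0.30 log2, and the naive-state genes Dppa3 and Klf2 both by 0.28 log2. Formative and primitive streak genes (0 higher and 2 lower of 15), primitive and visceral endoderm (1 and 3 of 20), trophectoderm (2 and 1 of 14), neural genes (2 and 2 of 17) and fibroblast genes (1 and 1 of 19) had medians between −0.09 and −0.01 log2. Neural genes went both ways, with Map2, a dendritic microtubule gene, at 0.54 log2 and Neurod1 at 0.48 log2 beside Pax6 and the neurofilament gene Nefl (−0.37 log2). The formative list had a lower median (−0.09 log2) than any of its clone medians (−0.00, −0.04 and −0.03 log2). All 18 other experiments had a higher one, but Sim2 clones, at −0.08 log2, were close to Hunk clones. Of the 6 genes of the 2-cell-like state that had a probeset of their own, among 14 listed, 1 was higher and 4 lower (median −0.25 log2), but the clone medians were −0.62, −0.10 and −0.10 log2. Without clone 1 the counts were 0 and 1, where 366 of all 18195 genes were higher and 337 lower.

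Of 26 imprinted genes 5 were higher and 0 lower (median 0.07 log2), namely the noncoding RNAs Meg3 and Mirg of the Dlk1-Dio3 cluster, the transcription factor gene Ascl2, Sgce and the Cdk inhibitor gene Cdkn1c, at 0.29 to 0.52 log2 (the list reads Meg3 through 1439380_x_at). The count higher was 5, 6 or 6 without clone 1, 2 or 3, where 366, 1044 or 1083 of all 18195 genes were higher. Of 21 interferon and MHC class I genes 3 were higher and 0 lower (median 0.07 log2), led by Stat2 at 0.43 log2.

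**Figure D5:**
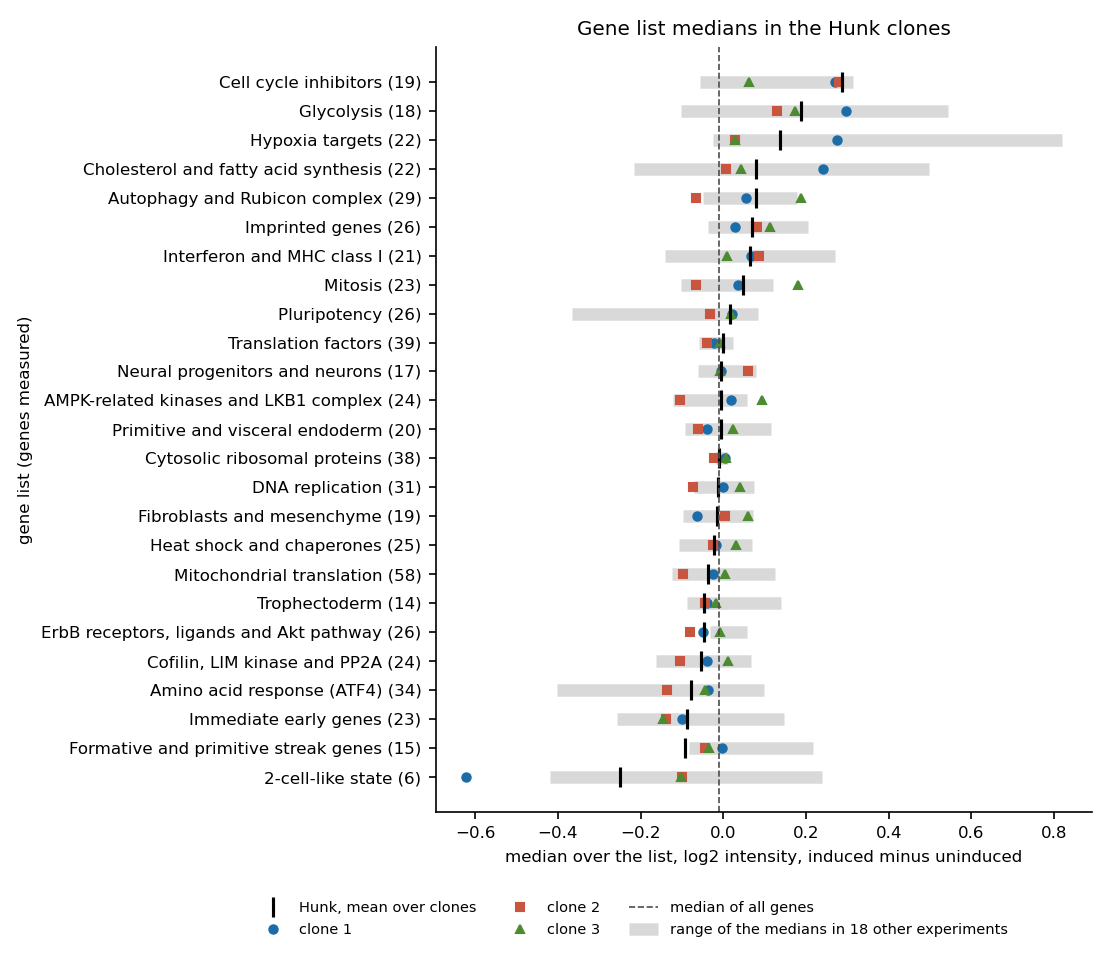
Median over each of 25 gene lists of the induced minus uninduced log2 intensity (horizontal axis), with a tick for the mean over clones, a symbol for each clone, a dashed line at the median of all genes (−0.01 log2) and a bar for the range over 18 other experiments. The cell cycle inhibitors lie highest at 0.29 log2 and the 2-cell-like genes lowest at −0.25 log2, where clone 1 alone is at −0.62 log2.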

How the data were processed

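The values are log2 intensities that the authors made with RMA (affy), run on the 6 arrays of each experiment, and deposited as 1 table. Levels therefore cannot be set side by side between experiments, and differences between the states of a clone were compared instead. Of 45101 probesets, 34958 have 1 annotated gene, 932 several and 9211 none. Probes are read as intensities, so the number of arrays limits the precision.

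Induced minus uninduced was fitted in limma 3.58.1 (R 4.3.3) with the clone as a block, since the study arrayed its clones in both states. The labels give replicate numbers but no clone names, so arrays of the same number were taken to be of the same clone. The deviations of same-numbered arrays correlated with r = 0.533, 0.0569 and 0.378 for clones 1, 2 and 3. Calls are at a Benjamini-Hochberg adjusted p under 0.05 over all probesets. Contrasts between experiments were fitted on the within-clone differences of 57 clones and 45100 probesets. The induction fit, the test between clones and the contrast with the mean of the other experiments were tried on simulated data.

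Lists used 1 probeset per gene. The members, lists and rules were chosen with earlier results of these data known. Genes named were the calls, the 12 largest differences in each direction, and up to 4 members per list. Further list members, probesets and noncoding RNAs were named after their values were seen. Alternatives covered the block, the variance model, dim probesets, normalization, the threshold and each clone left out.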

Additional observations from a re-analysis of the deposited data

Results flagged for a closer look

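Several differences were flagged because the induction difference of Hunk clones departed from that of other experiments in a test of the difference itself (limma, adjusted p under 0.05). Against the mean of the 18 other experiments, Hypk differed by 0.831 log2, 9330159F19Rik by −0.972 log2, and the probeset 1444292_at, which is annotated to several genes, by 0.947 log2. In all 3 clones Hypk and 1444292_at were higher and 9330159F19Rik was lower when induced. Against Sim2 clones, Ddit3 differed by −1.89 log2, A630072M18Rik by 1.16 log2, and Rab3il1 by −1.54, −1.73 and −1.16 log2 in 1425133_s_at, 1428391_at and 1456442_at. For Rab3il1 the Hunk difference itself was 0.34 log2 or less, against 1.25 log2 or more in Sim2 clones. The Hypk and 1444292_at calls were lost without clone 1 or clone 2, that of 9330159F19Rik without any 1 clone, and those against Sim2 without any 1 clone. The causes of these differences were not tested.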

How the results depend on the processing

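The number of probesets called for Hunk induction (3) depended on the variance model and on the clones. It was 0 without the replicate block, 0 with the methods' t-test (2645 at an unadjusted p under 0.05), 7 with Cyber-t-like regularization, 58 with trend and robust variances, 28 with a variance shared over all experiments, 1 with dim probesets left out, 2 after a second quantile normalization and 0 at an adjusted p under 0.01. All 3 calls were among the 7 and the 58, and 2 were among the 28. Leaving out a clone gave 1 (clone 1) to 268 (clone 3) calls. The Hunk probeset ranged from −0.0908 (without clone 1) to 0.0764 log2 (without clone 2), changing sign. The 89 calls between clones became 326 with trend and robust variances, 45 after quantile normalization and 10 at 0.01. Hunk minus the other 18 (3 calls) gave 5 with trend and robust variances, 0 at 0.01, 0 with the 39 hour experiments alone, and 0 to 3 without a clone. Hunk minus Ripk4 (0) gave 4, and Hunk minus Sim2 (5) gave 43, with trend and robust variances, while Hunk minus Sim2 gave 0 with dim probesets left out, at 0.01 and without any clone. List medians that moved beyond the spread between clones were ErbB and Akt (−0.0890 to 0.0176 log2 without a clone), translation factors (−0.0310 log2 with all probesets averaged, −0.0250 to 0.00283 log2 without a clone), formative genes (−0.0693 log2 averaged, −0.0815 to −0.0428 log2 without a clone), trophectoderm (−0.0426 to −0.0181 log2 without a clone), neural genes (−0.0461 log2 averaged) and interferon genes (0.14 log2 with dim probesets left out). The other 141 of 150 list medians moved by less than the spread between clones, which was wide: without clone 1 cholesterol came to 0.00812 and hypoxia to 0.0864 log2, without clone 3 autophagy came to 0.00494 log2, and without clone 2 AMPK-related kinases came to 0.0502 log2. For the 25 named genes, 184 of 245 comparisons kept their side of the threshold, 11 lost it, 50 gained it and 0 reversed. All 11 losses fell on the 3 called genes, since only these had passed. For the other named genes, keeping their side meant staying uncalled. Causes were not tested. With 3 clones, moderate changes may be missed, and probesets under the array median are near background.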

Other observations

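Host genes of small nucleolar RNAs and other noncoding RNAs were looked at after Neat1, Meg3 and Rps24 had been seen, so their values are given without a test. Of 26 probesets of 14 Snhg genes, 24 were higher in induced than in uninduced clones, with a median difference of 0.18 log2 (range −0.14 to 0.48) against −0.01 log2 over all probesets. In clone 3 alone, 19 of the 26 were higher. Gas5, another such host gene, was higher in the mean of all 4 of its probesets, by 0.03 to 0.66 log2. Its probeset 1436222_at was at 8.12, 8.27 and 8.06 log2 in induced clones 1, 2 and 3, against 7.55, 7.37 and 7.57 log2 in uninduced clones. Malat1, the noncoding RNA of nuclear speckles, was higher in all 7 of its probesets, by 0.09 to 0.62 log2 in the mean, but 6 of the 7 were lower in clone 3. A second Neat1 probeset differed by 0.14 log2, and the 3 probesets of Xist lay between −0.06 and 0.17 log2. Of 11 Meg3 probesets 10 were higher in the mean and 7 in clone 3, and the 4 of Rian, from the same imprinted cluster, differed by 0.06 to 0.22 log2 in the mean, with all 4 lower in clone 3 (−0.17 to −0.10 log2). Probesets of 1 gene share its transcripts and are not independent.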
